A study of Mus musculus with 8 samples.

Results

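*Trim28*, the gene deleted in this study, lies on mouse chromosome 7 in a tight row of genes, and 6 genes of that row were examined in Th17 cells with and without it. They are *Trim28* and the neighbours *Chmp2a*, *Ube2m*, *Mzf1*, *Zbtb45* and *Slc27a5*, chosen by position and looked up by gene symbol among the 13704 genes listed in the RNA-seq count tables. Of the 6 genes, 5 had reads, and *Slc27a5* had none. The WT library came from wild-type C57BL/6 mice and the KO library from TRIM28fl/flxCD4cre mice of the same strain, whose loxP-flanked *Trim28* alleles are cut by a Cre under the *Cd4* promoter, so that deletion is aimed at the T lineage. From each genotype naive CD4+ T cells were turned into Th17 cells, which make the cytokine IL-17, by 3 days of culture in TGF-β (0.5 ng/ml) together with IL-6 (20 ng/ml), and RNA was taken after re-stimulation with anti-CD3. Each genotype has 1 library, and how many mice went into each, their age and any Cre allele in the WT mice are not given in the sources used here. No difference below therefore has a replicate check, no p-value was computed, and intervals cover counting error alone. They take each read as a separate molecule. Without a molecular identifier on the reads this could not be checked, so the intervals may be too narrow even for counting error.

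TRIM28, also called KAP1, is a nuclear scaffold protein. KRAB zinc finger proteins bring it to DNA, and it brings in the histone methyltransferase SETDB1 and HP1 proteins that keep chromatin silent. It is also studied as an activator of transcription in T cells. The genes beside it have other work. CHMP2A is a subunit of ESCRT-III, the filament that cuts membrane necks in endosomes and dividing cells. UBE2M is the E2 enzyme that passes the ubiquitin-like protein NEDD8 to cullins, the backbones of a large class of ubiquitin ligases. ZBTB45 is a transcription factor with a BTB domain and zinc fingers, MZF1 is a zinc finger factor with a SCAN domain known from myeloid cells, and SLC27A5 is a liver enzyme that activates bile acids and very long-chain fatty acids. The neighbours were compared to ask whether the change in RNA at the deleted gene extends to the genes beside it.

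In RefSeq's annotation of GRCm38 (mm10) the 6 genes span 66.4 kb of chromosome 7. *Trim28* runs on the plus strand from 13024152 to 13031032 with 17 exons, and the other 5 genes all run on the minus strand. *Chmp2a* (13032006 to 13034777) ends 973 bases beyond the end of *Trim28*, so these genes point tail to tail. *Ube2m* (13035120 to 13038275) ends 342 bases upstream of the start of *Chmp2a*, and *Mzf1* (13042303 to 13054764) ends 4027 bases upstream of the start of *Ube2m*. On the other side *Zbtb45* (13005666 to 13010047) points away from *Trim28* with 14104 bases between their starts, and *Slc27a5* (12988346 to 12998192) lies 7473 bases further out. A predicted minus-strand gene, *Gm31649*, overlaps the first 438 bases of *Trim28* and was listed in neither library. No strand setting is stated for the counting, so reads from *Gm31649* could not be told apart from reads of the first exon of *Trim28*.

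The start regions of *Trim28*, *Chmp2a* and *Ube2m*, which follow one another on the chromosome, are shown. Whether these sequences bear on the levels of the genes was not tested. Each is 120 bases on the gene's own strand, from 150 to 31 bases before the RefSeq start of GRCm38.p6, in lower case with GC boxes (GGGCGG or its complement CCGCCC) in capitals. They are chr7:13024002-13024121 (plus strand) for *Trim28*, chr7:13034808-13034927 (minus strand) for *Chmp2a* and chr7:13038306-13038425 (minus strand) for *Ube2m*.
Trim28: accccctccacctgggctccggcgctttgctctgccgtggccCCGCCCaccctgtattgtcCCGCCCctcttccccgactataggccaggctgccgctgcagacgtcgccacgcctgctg
Chmp2a: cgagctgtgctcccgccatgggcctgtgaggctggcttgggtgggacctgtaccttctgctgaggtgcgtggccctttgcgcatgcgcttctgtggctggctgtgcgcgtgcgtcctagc
Ube2m: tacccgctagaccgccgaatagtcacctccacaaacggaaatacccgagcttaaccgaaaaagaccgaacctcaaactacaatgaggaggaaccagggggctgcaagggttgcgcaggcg
The RefSeq promoter table held 5 of the 6 genes, and *Slc27a5* was not in it. For *Zbtb45* it held a start at 13009852, inside the gene, and not the outermost start at 13010047. The window of *Zbtb45* is counted from the former. In this window *Trim28* had 10 CpG dinucleotides, *Ube2m* 9, *Chmp2a* and *Zbtb45* 8 each and *Mzf1* 6, against a median of 3 over the 32817 promoters of the table. *Trim28* had 2 GC boxes, which begin 108 and 89 bases before its start, and a GC box was found in 23.5% of all promoters. None of the 5 windows held TATAAA or CCAAT on either strand, which were found in 5.0% and 21.1% of all promoters. CCGGAAG or its complement, the core of sites for ETS factors, was found once, in *Zbtb45*, and in 3.55% of all promoters. These matches describe letters in a window and not binding.

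In units of 1000000 reads, the WT library held 6.65 uniquely assigned over 13078 genes and the KO library 6.19 over 12754 genes, and a gene missing from one table was taken to have 0 reads there. Of 8 CD4 T-cell markers, 6 had reads in both libraries (*Cd4* 7904 and 6598 reads, *Cd3e* 4407 and 4778), and *Trbc1* and *Trbc2* were listed in neither. All 5 Th17 markers had reads in both libraries, and their summed level, in CPM (reads per 1000000 counted reads), was 1139 for WT and 328 for KO. Of 22 markers of CD8 T cells, B cells, macrophages, dendritic cells, NK cells, neutrophils and red cells, 12 were at 0 in both libraries. The largest sums among the rest were those of B cells, 11.3 CPM for WT and 7.11 CPM for KO, and of CD8 T cells, 7.97 and 4.69 CPM. The naive cells had been sorted by CD4, CD25, CD62L and CD44 before culture, a gate that removes such cells. Their part in the levels of the 6 genes was not tested, and in bulk RNA fewer cells of a type and less RNA per cell cannot be told apart.

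*Trim28* had 4485 reads in the WT library and 180 reads in the KO library, which is 674 CPM and 29.1 CPM. Its level in the KO library was 4.32% of that in the WT library (exact, or Clopper-Pearson, 95% interval from 3.70% to 5.01%). On the log2 scale, after 0.5 was added to both counts, KO over WT was -4.53 (interval -4.76 to -4.32), a 23.1-fold difference. The gene moved from rank 201 to rank 5309 among all genes by number of reads. Fold changes were compared over the 10881 genes with 10 or more reads in the libraries together, and 27 of them had a lower one than *Trim28*. None of the 1474 genes with 1000 or more WT reads had a lower one. The next lowest there was *Il17f*, the gene of a Th17 cytokine, at -3.08. The counts are sums over whole genes, and the sources used here do not say which exons lie between the loxP sites, so the 180 reads cannot be placed on deleted or kept exons.

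*Chmp2a*, the nearest gene, had 636 reads in the WT library and 636 reads in the KO library. That is 95.6 and 103 CPM, or 0.10 on the log2 scale (95% interval -0.06 to 0.27). The gene whose 3′ end lies 973 bases from that of *Trim28* thus differed by less than the counting error, where *Trim28* differed by 23.1-fold.
*Ube2m* had 240 and 352 reads, or 36.1 and 56.9 CPM. It was higher in the KO library by 1.58-fold, past counting error but short of 2-fold. Its log2 fold change was 0.66, between 0.42 and 0.90. This interval did not overlap that of *Chmp2a*, so the adjoining pair differed from each other by more than counting error.
*Zbtb45*, on the other side, had 427 and 533 reads, or 64.2 and 86.2 CPM. It was 1.34-fold higher in the KO library, or 0.42 on the log2 scale (0.24 to 0.61).
*Mzf1* had 12 and 14 reads, or 1.80 and 2.26 CPM, which gave 0.31 on the log2 scale. Its interval ran from -0.89 to 1.57, so that neither a change within these bounds nor its direction was detectable at this depth.
*Slc27a5* had 0 reads in both libraries, which allows a level of up to 0.451 CPM (3 reads) for WT and 0.485 CPM for KO. No fold change can be given for it.

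**Figure D1:**
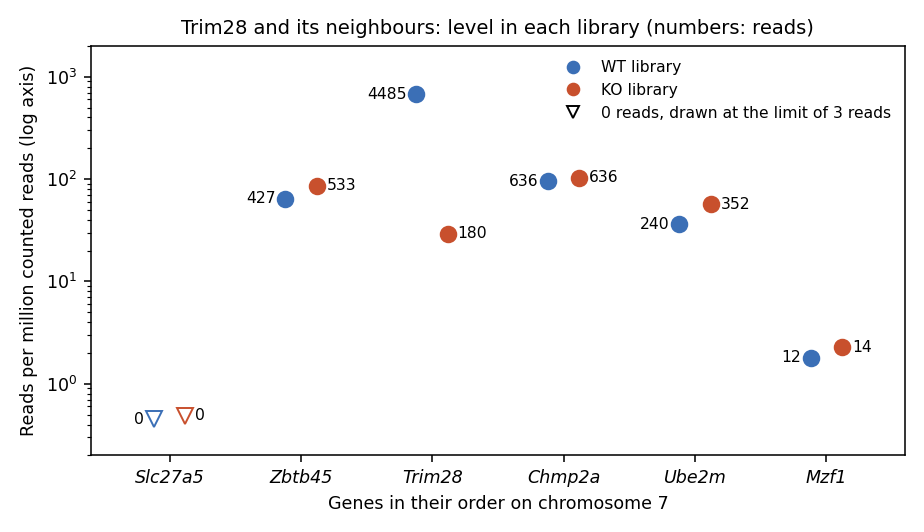
Level of each gene in CPM (log axis), in the order of the genes on chromosome 7, with the WT library in blue and the KO library in red and the number of reads beside each point. *Trim28* drops from 4485 to 180 reads, while the paired points of the 4 neighbours with reads lie close together and *Slc27a5* (open triangles at the limit of 3 reads) has none.

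With 1 library per genotype a gene was called when its level differed at least 2-fold between the libraries. By this rule 8.11% of the 10881 compared genes were lower and 3.75% higher in the KO library, 11.9% in either direction. *Trim28* was called lower, and of the 4 neighbours with enough reads 0 were called lower and 0 higher, counts too small to be set apart from that background. At 1.5-fold, a bound passed downward by 17.7% and upward by 10.7% of the compared genes, *Ube2m* was called higher and the other 3 were not called. The log2 fold changes of all 4 were above 0, those of *Chmp2a* and *Mzf1* by less than counting error, and that of *Chmp2a* turned to -0.16 with a correction for transcript length. The middle of the 10881 genes lay at a log2 fold change of -0.02, with quartiles at -0.41 and 0.30. The values of *Zbtb45*, *Mzf1* and *Ube2m* were above the upper quartile and that of *Chmp2a* between the quartiles. The interval of *Mzf1*, from -0.89 to 1.57, covers both quartiles, so its place is not settled.

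**Figure D2:**
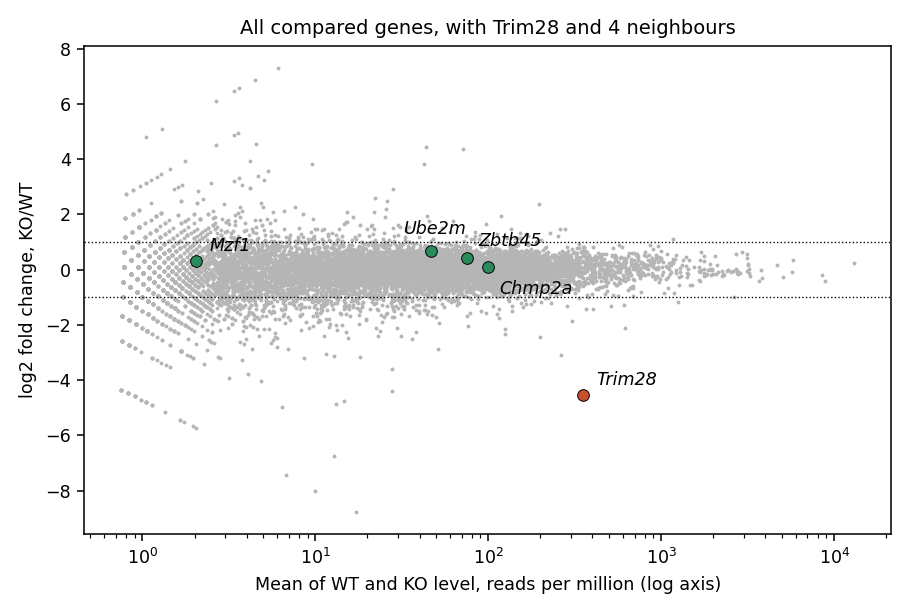
Log2 fold change (KO/WT) of the 10881 compared genes (grey) against the mean CPM of both libraries (log axis), with *Trim28* in red, 4 neighbours in green and dotted lines at a 2-fold change. *Trim28* stands at -4.53 far below genes of like level, and the neighbours lie inside the dotted lines.

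Levels can be compared between genes only per length. In RPKM, which is CPM per kilobase of the longest curated RefSeq transcript, *Trim28* led the row in the WT library at 208 (exact Poisson 95% interval from 202 to 214), followed by *Chmp2a* at 90.2 (83.3 to 97.5). *Zbtb45* at 28.7 and *Ube2m* at 27.9 came next and did not differ beyond their counting error (intervals from 26.0 to 31.5 and from 24.5 to 31.6), and *Mzf1* was at 0.502. In the KO library the order was *Chmp2a* at 97.0, *Ube2m* at 43.9, *Zbtb45* at 38.5, *Trim28* at 8.98 and *Mzf1* at 0.629, and the intervals of *Ube2m* (39.5 to 48.8) and *Zbtb45* (35.3 to 41.9) again overlapped. The residual *Trim28* signal was thus below 3 of its neighbours and above *Mzf1*.
These levels depend on how reads were assigned. In the WT library the median level was 9.59 RPKM for the 6900 listed genes with 1 curated RefSeq transcript and 2.15 RPKM for the 696 genes with 4. *Trim28* has 1 such transcript, *Zbtb45* 2, *Ube2m* 3, *Mzf1* 4 and *Chmp2a* 5. Whether this lowered the count of *Mzf1*, of any other neighbour or of any other gene named below was not tested.

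Across all genes the log2 fold change was lower for longer transcripts. A loess curve through it stood at 0.26 for 1060 bases, the length of *Chmp2a*, and at -0.10 for 3597 bases, that of *Mzf1*. Among the 400 genes within 10% of the length of *Chmp2a* the median log2 fold change was 0.28, and 33.2% of them were below *Chmp2a* at 0.10. *Ube2m* (1295 bases) was above 85.9% of the 601 genes of like length, whose median was 0.26. *Zbtb45* (2238 bases) was above 79.7% of 1118 genes and *Mzf1* above 83.2% of 1326 genes of like length. With the curve against length taken off, *Ube2m* was at 0.42 (counting interval from 0.18 to 0.66), *Zbtb45* at 0.33 (0.14 to 0.52), *Mzf1* at 0.42 (-0.79 to 1.67) and *Chmp2a* at -0.16 (-0.32 to 0.00290). *Trim28* was at -4.47. Of the 1373 genes within 10% of its length (3242 bases), 2 had a lower log2 fold change.

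**Figure D3:**
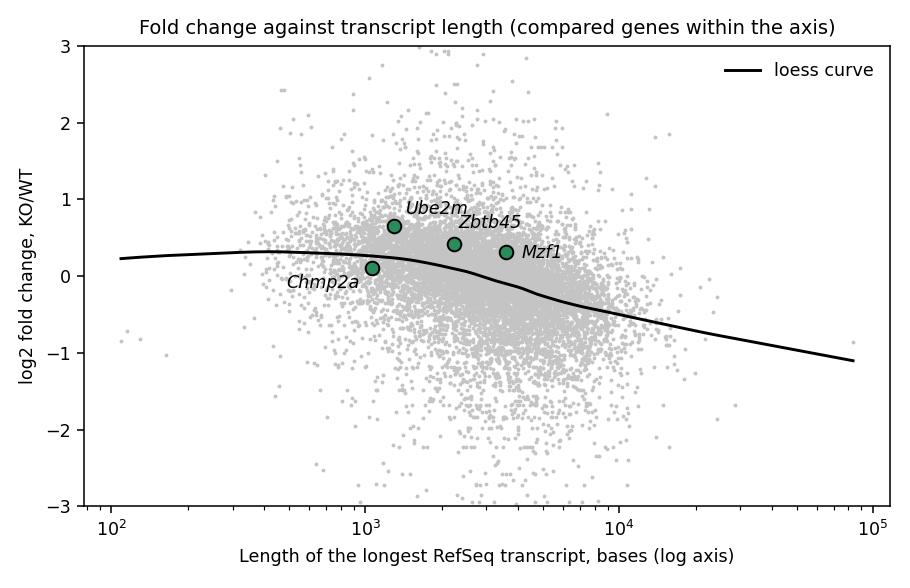
Log2 fold change (KO/WT) against the length of the longest RefSeq transcript in bases (log axis) for the compared genes (grey), with the loess curve in black and the 4 neighbours with reads in green. The curve falls with length. *Ube2m*, *Zbtb45* and *Mzf1* lie above it and *Chmp2a* below it, and 97 compared genes with changes beyond the axis limits of 3, *Trim28* among them, are not drawn.

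RefSeq lists 89 other genes and pseudogenes with a start within 1 Mb of that of *Trim28*, of which 18 had reads and 16 had enough to be compared, the 4 neighbours included. Of these 16, 0 were called lower and 0 higher, against 8.11% and 3.75% of all compared genes. Their log2 fold changes ran from -0.62 to 0.66 with a median of 0.12, against -0.02 over all compared genes. Of the 16, 11 were above 0 and 5 below, where over all compared genes 5282 were above and 5599 below. Of the 11, only *Zfp110*, *Zbtb45* and *Ube2m* were above 0 by more than counting error. Within 100 kb 6 genes could be compared, with a median of 0.21 and 5 of them above 0. Of these 5 only *Zbtb45* and *Ube2m* were so by more than counting error. The lowest of the 16 was *Zfp329*, a zinc finger gene, with 204 and 123 reads (-0.62, interval from -0.96 to -0.30). Its transcript is long, 7933 bases, and with the length curve taken off it was at -0.19. It shares 7889 bases of the same strand with *Zscan18* (7 and 9 reads). Reads there may have been counted for neither gene, as the counts hold only reads assigned to a single gene. The highest was *Ube2m*.
The region holds 11 zinc finger genes, all of which had reads. *Zfp324* had 114 and 103 reads (-0.04, interval from -0.44 to 0.36). *Zfp110* had 270 and 329 reads (0.39, interval from 0.15 to 0.63). *Zfp446*, between *Zfp324* and *Slc27a5*, had 5 reads in each library. The same region holds 27 vomeronasal receptor genes, 10 of them named as pseudogenes, which serve pheromone sensing in the nose. None was listed in either library, a level of at most 0.451 CPM in WT and 0.485 CPM in KO for each, as far as near-identical copies can be counted by uniquely assigned reads.
On the whole of chromosome 7, with *Trim28* left out, 821 genes could be compared. Of these 8.16% were called lower and 4.02% higher, close to the 8.11% and 3.75% of all compared genes, with a median of 0.02.

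**Figure D4:**
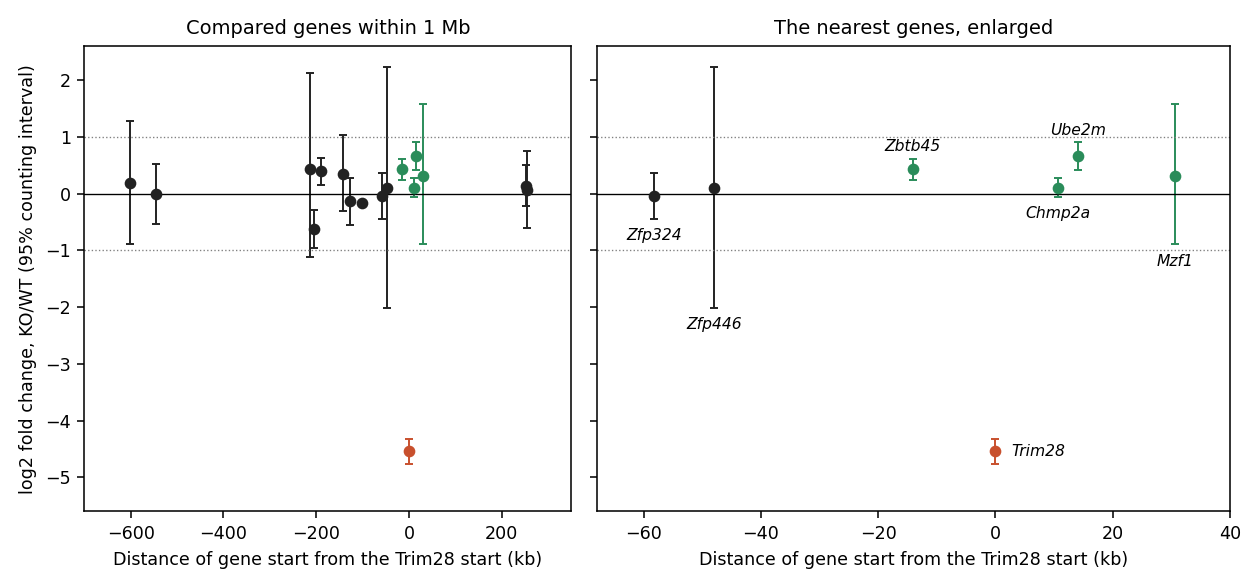
Log2 fold change (KO/WT) with its 95% counting interval against the distance in kb of each gene's start from that of *Trim28*, for *Trim28* (red), the neighbours (green) and the other compared genes (black). The left panel shows the genes within 1 Mb and the right panel enlarges the nearest ones. The drop to -4.53 is seen at *Trim28* alone, and the 16 other points lie between -0.62 and 0.66.

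The neighbours were then set beside the other genes of their own pathways. Over all compared genes 8.11% were called lower and 3.75% higher, shares against which no list was tested. *Chmp2a* belongs to a list of 14 ESCRT-III and VPS4 genes, of which 13 could be compared and none was called. Their log2 fold changes lay between -0.27 and 0.48 with a median of 0.16, and 11 of 13 were above 0. With the length curve taken off the median was 0.01 and 7 of 13 were above 0. *Chmp2b*, the paralog of *Chmp2a*, had 225 and 221 reads (0.08), *Chmp4b*, the main filament subunit, had 2897 and 3756 reads (0.48, interval from 0.41 to 0.55), and *Vps4b*, the ATPase that takes the filament apart, had 996 and 770 reads (-0.27, interval from -0.40 to -0.13). *Chmp2a* at 0.10 thus lay inside the range of its family. Of 15 genes of the earlier ESCRT complexes, 14 could be compared and none was called, with a median of 0.18 (0.08 with the length curve taken off) and a range from -0.69 (*Vps37a*) to 0.58 (*Mvb12a*).

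*Ube2m* was the highest of the 26 NEDD8 pathway genes that could be compared of 31 listed. With the GC curve taken off, 4 of them were above it. None was called, beside 8.11% lower and 3.75% higher of all compared genes. The median was 0.12, and 17 genes were above 0. *Nedd8* itself had 468 and 668 reads (0.62, interval from 0.45 to 0.79), close to the 0.66 of *Ube2m*. *Rbx1*, the RING subunit that works with UBE2M on most cullins, had 690 and 909 reads (0.50, interval from 0.36 to 0.65), and *Nae1*, a subunit of the NEDD8-activating enzyme, 300 and 360 reads (0.37, interval from 0.14 to 0.59). *Ube2f*, the other NEDD8-conjugating enzyme, had 257 and 236 reads (-0.02, interval from -0.28 to 0.24), below *Ube2m* beyond counting error. The cullin genes *Cul1*, *Cul2*, *Cul3* and *Cul4a* lay between -0.12 and 0.01, and *Cul5* had only 7 and 4 reads. *Cand1*, which exchanges the substrate receptors of cullin ligases, had 1674 and 1160 reads (-0.42, interval from -0.53 to -0.32).
With the length curve taken off, the median of the list was 0.04 and 16 were above 0. *Nedd8* (580 bases) moved to 0.31, *Rbx1* to 0.31 and *Nae1* to 0.20, beside 0.42 for *Ube2m*, and *Cand1*, with 8209 bases, moved from -0.42 to 0.02.

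*Zbtb45* had a log2 fold change above 0, and most of its compared family had one below 0. Of 45 ZBTB and related BTB zinc finger genes, 33 could be compared. Their median was -0.30, with 26 below 0 and 7 above, and *Zbtb45* at 0.42 was among the 7. After correction for length the median was -0.10, with 21 below 0 and 12 above. Before and after this correction, many of the genes below 0 were so by less than counting error. Of the list 2 genes were called lower and 0 higher, *Zbtb37* with 35 and 8 reads (-1.96, interval from -3.34 to -0.89) and *Zbtb5* with 21 and 8 reads (-1.24, interval from -2.67 to -0.05), beside 8.11% of all compared genes called lower. Both rest on few reads, and neither could be compared when at least 10 reads were required in each library. *Zbtb7b*, known as ThPOK, the factor that keeps CD4 T cells in their lineage, had 2972 and 2228 reads (-0.31, interval from -0.39 to -0.23).
*Mzf1* was set beside 26 other SCAN zinc finger genes, 21 of the 27 with enough reads. None was called, beside 8.11% lower and 3.75% higher of all compared genes. The range ran from -0.82 to 0.72 with a median of -0.14, or -0.01 with the length curve taken off. This list shares *Zscan18*, *Zscan22* and *Zfp446* with the region around *Trim28*.
In the SLC27 family of fatty acid transporters and acyl-CoA synthetases, *Slc27a4* was the most abundant by reads with 586 and 537 (-0.02), *Slc27a1* had 170 and 112 reads (-0.50, interval from -0.85 to -0.14) and *Slc27a3* 30 and 32 (0.19). *Slc27a6* had 5 and 3 reads, and *Slc27a2*, like *Slc27a5*, had none. Of 8 liver genes fixed as a check on *Slc27a5*, 6 had no reads, among them *Alb* and *Cyp7a1*, the gene of the first enzyme of bile acid synthesis. *Baat*, whose enzyme works after SLC27A5 on bile acids, had 2 and 0 reads. *Apoa2* had 3 and 8 reads and was past 2-fold (1.37), but its interval, from -0.54 to 4.07, included no change.
Of 8 partners and paralogs of TRIM28, none was called, beside 8.11% lower and 3.75% higher of all compared genes. Their median was 0.00, or 0.20 with the length curve taken off. *Chd3* (7281 bases) had 4399 and 3887 reads, and turned from -0.07 to 0.33 with that correction. Without it, *Cbx3*, an HP1 gene, had 1576 and 1902 reads (0.38) and *Atf7ip* 1206 and 734 (-0.61). *Setdb1* had only 5 and 8 reads, *Cbx5* 23 and 15, *Trim24* 17 and 17 and *Trim33* 16 and 12. The median of the list thus rests in part on small counts.

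**Figure D5:**
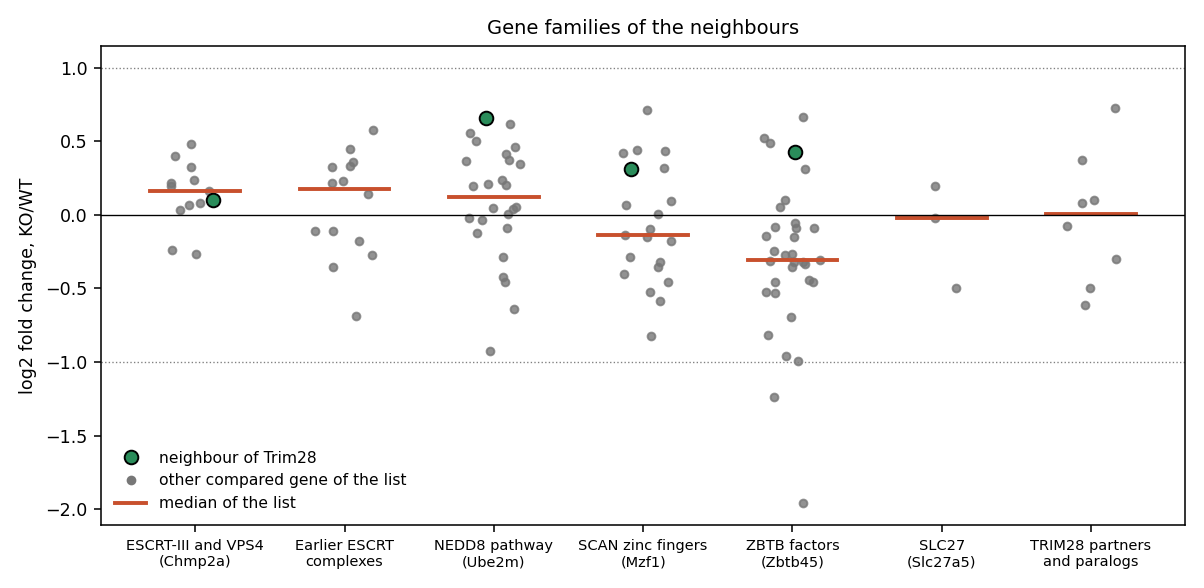
Log2 fold change (KO/WT) of each compared gene of 7 lists, with the neighbours of *Trim28* in green, other list members in grey, the median of each list as a red bar and dotted lines at a 2-fold change. *Ube2m* tops the NEDD8 list at 0.66, *Zbtb45* stands at 0.42 above the ZBTB median of -0.30, *Chmp2a* lies near the ESCRT-III median, and only 2 ZBTB genes pass 2-fold.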

How the data were processed

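The authors mapped RNA-seq reads to mm10 with SOAP2 and deposited a table for each library with raw counts, for every gene, of the reads assigned to it alone. The submitters' processing notes also name HTSeq, Bowtie and bcl2fastq without saying for which data. The counting annotation and strand setting are not given in the sources used here. ChIP-seq samples were not analysed here. Counts were scaled to library totals, 0.5 was added before taking log2 ratios, and genes with 10 or more reads in the pair of libraries entered the comparison. With 1 library per genotype no residual degrees of freedom exist, so no test was run and a call means a change of at least 2-fold. Exact 95% intervals came from SciPy 1.17.1. Of 13704 gene names, 12841 matched a RefSeq symbol of GRCm38.p6 and 804 a unique older one. The longest curated transcript gave length and GC content, and promoter sequences came from RefSeq. Loess curves (span 0.3) used statsmodels 0.14.6. The calculations were tested on simulated data. The genes and lists were chosen with earlier results of these data known. Named were the 6 genes, genes with reads within 100 kb, list members past 2-fold, the paralogs *Chmp2b*, *Ube2f* and the SLC27 genes, and the 3 genes with at least 100 WT reads nearest in fold change to *Trim28*. Other genes were named after their values were seen. The alternatives were upper-quartile scaling, TMM from edgeR 4.0.16, DESeq2 1.42.0 size factors, 5 added to each count, corrections for length or GC content, 3 other filters, 2 other call rules and 2 other windows.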

Additional observations from a re-analysis of the deposited data

How the results depend on the processing

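No paired analysis was possible because there was 1 library per genotype. No library could be left out either. Over 6 alternatives for single genes *Trim28* stayed between -4.62 and -4.47, *Ube2m* between 0.42 and 0.68, *Zbtb45* between 0.33 and 0.45 and *Mzf1* between 0.22 and 0.42. *Chmp2a* turned from 0.10 to -0.16 with the length correction, which takes off a curve of 0.26 at its length. At 1.5-fold, where 17.7% of all compared genes were called lower and 10.7% higher, the neighbours called higher became 1 (*Ube2m*), and within 1 Mb 1 gene was lower (*Zfp329*) and 1 higher. With at least 1 read over both libraries (14.8% of all genes lower, 8.41% higher) 1 gene within 1 Mb was higher. The same filter gave 1 ESCRT-III gene lower, 1 NEDD8 gene lower and 1 higher, 2 SCAN genes lower, 6 ZBTB genes lower and 3 higher, and 1 liver gene lower, and it turned the liver median from 1.37 to -0.45. At 1.5-fold there was 1 earlier ESCRT gene lower, 2 NEDD8 genes lower and 2 higher, 2 SCAN genes lower and 1 higher, 6 ZBTB genes lower and 1 higher, and 1 TRIM28 partner lower and 1 higher. The length correction gave 1 SCAN gene higher and 1 ZBTB gene lower, and 5 added to each count gave 1 ZBTB gene lower. At least 10 reads in each library, or 50 over both, left 0 ZBTB genes lower and 0 liver genes higher. The liver count was also 0 with 5 added to each count and when the interval had to exclude no change. Over all genes 882 were called lower and 408 higher, against 582 and 254 with 5 added to each count, 408 and 195 with at least 10 reads in each library, 375 and 167 with at least 50 over both, 2030 and 1152 with at least 1, and 1931 and 1162 at 1.5-fold. Depth limits genes with few reads, such as *Mzf1*.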

Other observations

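The genes whose fall was most like that of *Trim28* (log2 fold change -4.53) among genes with at least 100 reads in the WT library lay on other chromosomes. *Myof*, the gene of the membrane repair protein myoferlin on chromosome 19, had 351 WT and 15 KO reads (-4.40, counting interval from -5.30 to -3.70). *Piwil2*, a PIWI protein gene known from the germ line, on chromosome 14, had 187 and 6 reads (-4.75, interval from -6.32 to -3.71). *Rpph1*, the RNA subunit of RNase P, also on chromosome 14, had 170 and 5 reads (-4.85, interval from -6.62 to -3.73). Each had fewer reads in the WT library than *Trim28* with 4485. With 1 library per genotype likeness means only a near-equal fold change in a single comparison.

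Within 10 Mb of the start of *Trim28*, 129 other genes were compared, 13 of them called lower and 8 higher, which is 10.1% and 6.20%, beside 8.11% and 3.75% of all compared genes. None of these calls lay within 2 Mb, where reads were found only on the 18 genes that also lie within 1 Mb. *Rnf225*, listed in the count tables as *2310014L17Rik* at 12927416 to 12931072, had 2 and 4 reads, too few to be compared.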
